A study of Homo sapiens with 36 samples.

Results

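The genes described here are 8 members of the MYC and MAX network, MYC, MAX, MXI1, MXD1, MXD3, MXD4, MNT and MLX, taken by symbol from the probe annotation. They are measured by 16 of the 47323 probes on the array, and they are 8 of the 20046 genes with a named probe. Of the 16 probes, 13 were above background (detection p under 0.01) on at least 3 of the 36 arrays and were tested, and each of the 8 genes has at least 1 tested probe. Transcripts were profiled with 1-colour bead arrays from Illumina in 3 prostate cancer cell lines, DU145, PC-3 and 22Rv1, the first described as radioresistant and the others as radiosensitive. Each line was given 1 µM vorinostat, an inhibitor of histone deacetylases, or solvent, and was kept at 0.2% oxygen (hypoxia) or in normoxia, each for 24 h, with 3 arrays in each of the 12 groups. The 12 groups were therefore, in each line, vorinostat in hypoxia, solvent in hypoxia, vorinostat in normoxia and solvent in normoxia. All cells shared one RPMI medium with fetal calf serum, and RNA was taken before any irradiation. The sample titles say solvent where the characteristics say untreated. Nothing says that the 3 arrays of a group come from separate cultures, so the p-values measure only the spread between these arrays, which may be technical.

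MYC is a transcription factor that binds the DNA sequence CACGTG (the E-box) as a dimer with MAX and raises transcription of genes for growth and ribosome assembly. The MXD proteins (MXI1 is one of them) and MNT compete with MYC for MAX, and their dimers recruit the SIN3 corepressor, which holds the histone deacetylases HDAC1 and HDAC2. MLX is a MAX-like protein that pairs with the glucose-sensing factors MLXIP and MLXIPL and with some of the antagonists. Hypoxia-inducible factors bind the core ACGTG or the core GCGTG, and MXI1 is a known target of theirs.

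The promoters of MXI1, MXD4 and MNT are shown because MXI1 and MXD4 were called higher in hypoxia with solvent in each line and MNT in DU145 in the results that follow. MXD1 was called so in PC-3, and its window, not shown, held none of the motifs searched. RefSeq promoter windows, from 250 bases before to 50 after each transcript start (GRCh38.p14), were found for 7 of the 8 members. Capitals mark the E-box CACGTG and the cores ACGTG or else GCGTG on either strand, and a CACGTG counts also as an ACGTG on both strands. MXI1 has 3 windows, at chr10:110207355-110207654, chr10:110209981-110210280 and chr10:110225746-110226045, all on the plus strand. The MXD4 window lies at chr4:2262060-2262359 and the MNT window at chr17:2401011-2401310, both on the minus strand.
MXI1 promoter 1: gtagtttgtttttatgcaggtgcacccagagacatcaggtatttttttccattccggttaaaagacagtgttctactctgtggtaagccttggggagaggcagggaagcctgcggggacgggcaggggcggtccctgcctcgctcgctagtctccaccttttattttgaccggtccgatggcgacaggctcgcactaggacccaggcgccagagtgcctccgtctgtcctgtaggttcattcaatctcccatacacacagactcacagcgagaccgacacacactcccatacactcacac
MXI1 promoter 2: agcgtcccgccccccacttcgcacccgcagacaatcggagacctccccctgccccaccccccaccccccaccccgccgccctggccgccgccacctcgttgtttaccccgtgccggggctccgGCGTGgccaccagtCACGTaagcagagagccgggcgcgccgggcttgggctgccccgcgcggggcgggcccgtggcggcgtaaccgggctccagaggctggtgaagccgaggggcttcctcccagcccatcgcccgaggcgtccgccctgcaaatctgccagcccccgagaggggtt
MXI1 promoter 3: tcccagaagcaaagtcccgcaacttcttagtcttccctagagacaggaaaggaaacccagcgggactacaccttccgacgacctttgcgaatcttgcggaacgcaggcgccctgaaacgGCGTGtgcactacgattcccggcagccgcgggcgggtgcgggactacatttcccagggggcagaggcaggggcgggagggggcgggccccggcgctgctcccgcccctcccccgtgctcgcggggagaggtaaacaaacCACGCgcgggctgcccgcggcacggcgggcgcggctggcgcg
MXD4 promoter: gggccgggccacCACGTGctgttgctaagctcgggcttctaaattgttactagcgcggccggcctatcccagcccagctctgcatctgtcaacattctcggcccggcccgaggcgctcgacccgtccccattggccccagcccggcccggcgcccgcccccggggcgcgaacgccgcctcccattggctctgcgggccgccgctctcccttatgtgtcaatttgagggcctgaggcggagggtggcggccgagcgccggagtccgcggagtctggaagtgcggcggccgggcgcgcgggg
MNT promoter: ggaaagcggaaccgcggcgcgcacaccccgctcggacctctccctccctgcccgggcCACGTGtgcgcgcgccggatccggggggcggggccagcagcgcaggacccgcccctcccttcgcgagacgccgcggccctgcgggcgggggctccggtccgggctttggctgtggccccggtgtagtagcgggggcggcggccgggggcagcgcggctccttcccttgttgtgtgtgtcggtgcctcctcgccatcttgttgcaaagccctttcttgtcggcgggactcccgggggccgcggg

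CACGTG stood once in the windows of MXD4, MNT and MLX, and in 7.26% of all 35116 promoter windows of this length. The first MXI1 window held none of the 3 motifs, the second held ACGTG and GCGTG once each, and the third held GCGTG 2 times. The cores also stood in windows of members not called higher in hypoxia with solvent. MXD3 held GCGTG 2 times, the second MAX window held ACGTG once, and MLX held ACGTG 2 times and GCGTG once. Over all windows, ACGTG occurred in 21.4%, GCGTG in 36.5% and either of them in 48.4%. These matches describe letters in a window, and the files do not tie a probe to one of the 3 MXI1 starts.

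The arrays were alike in quality: 30.1% to 35.7% of the probes were above background, and replicates correlated at 0.984 to 0.995 over the tested probes. Epithelial markers (EPCAM, KRT8, KRT18, CDH1, KRT19) were above background on all arrays of all lines, and KLK2, an androgen receptor target, was so on 12 of 12 arrays of 22Rv1 and on 0 of 12 of each other line. Of the 8 listed genes of the androgen receptor pathway 6 have a probe, and 2 of them were above background on all arrays in DU145, 4 in PC-3 and 5 in 22Rv1. KLK3 was so on 0 of 12 arrays of each line, while FKBP5 and SLC45A3 were so on 12 of 12 in each. Of the markers of other cell types, the endothelial PECAM1 and the fibroblast collagen COL1A1 were above background on 12 of 12 arrays of PC-3, where CDH5, VWF and KDR were on 0. The other fibroblast markers were above background in PC-3 on 10 arrays (LUM), 7 (COL3A1), 4 (PDGFRA) and 1 (DCN). COL1A1 was so on 5 of 12 arrays of DU145 and 4 of 22Rv1, and LUM on 5 of 22Rv1. The leukocyte markers PTPRC, CD3E and TYROBP were above background on 0 arrays of any line, and CD14 on 6 of 12 arrays of DU145, 9 of PC-3 and 6 of 22Rv1. Of 8 tested genes known to be induced by hypoxia, 6 rose in hypoxia in DU145, 7 in PC-3 and 7 in 22Rv1. The share of all genes that rose was 7.08%, 6.71% and 9.25% in these lines. Levels below are normalized log2 signals of 1 probe, and they are not set against those of another probe. A change counts as called where limma's p, adjusted by Benjamini-Hochberg over 21376 probes, was under 0.05, and the percentage of all tested probes called in a comparison is given as its background. In bulk RNA, fewer cells of a type and less RNA per cell cannot be told apart.

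**Figure D1:**
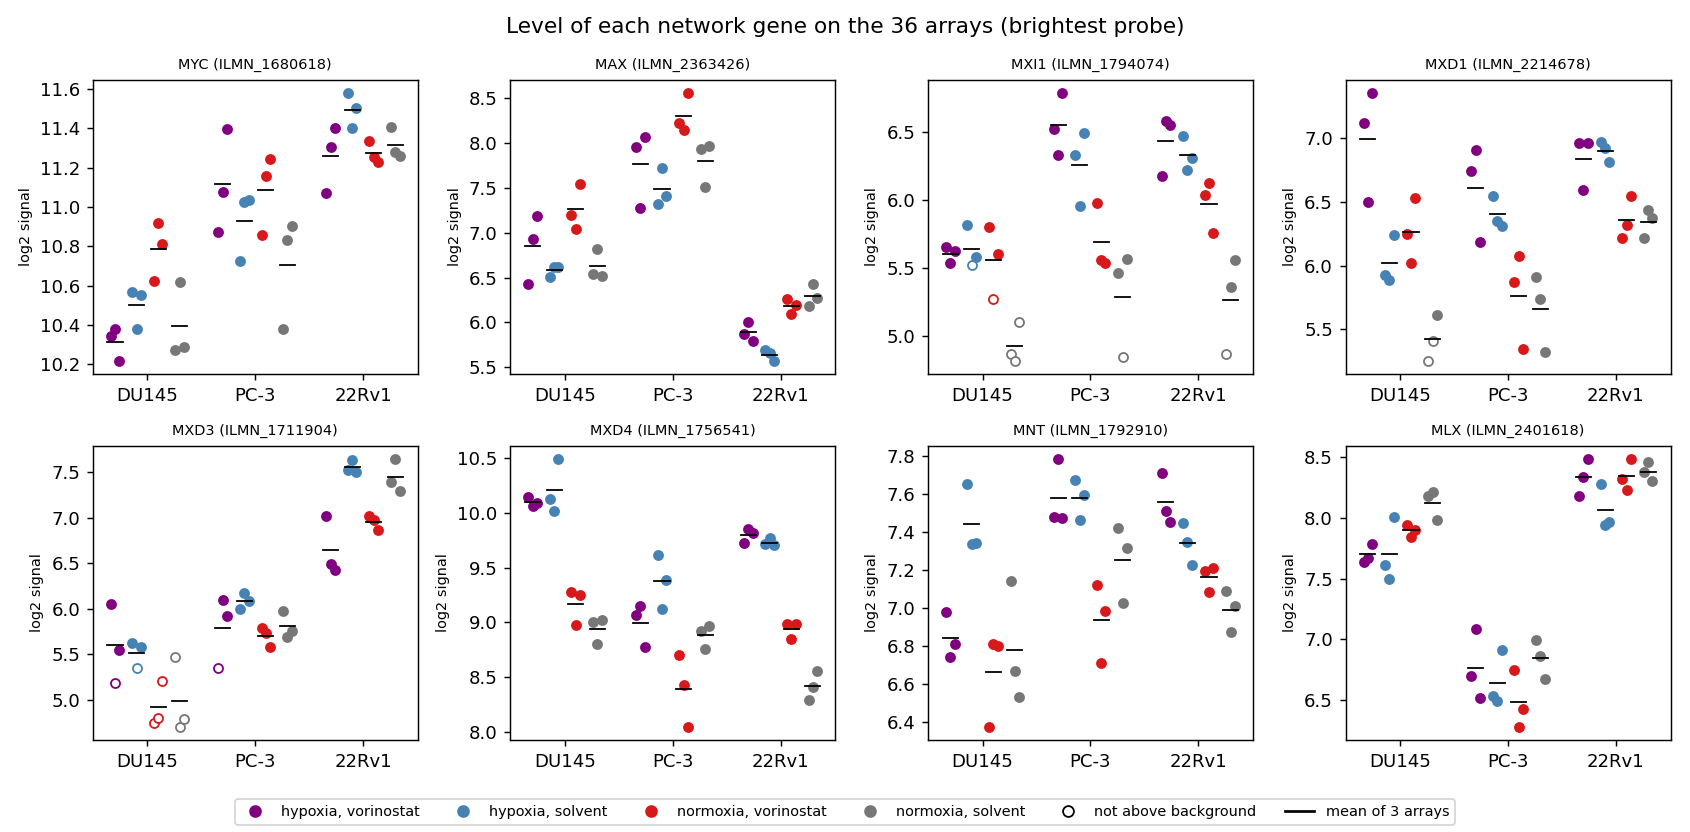
Normalized log2 signal (y axis) of the brightest probe of each gene on all 36 arrays, grouped by line (x axis) and coloured by oxygen level and treatment. Each point is 1 array, open points are not above background, and bars are means of 3 arrays. With solvent, MXI1 and MXD4 sit higher in hypoxia than in normoxia in each line, and MXD1 is highest in DU145 with vorinostat in hypoxia.

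MYC (chr8:127735434-127742951) was above background on all 36 arrays with both of its probes. With the probe ILMN_1680618, MYC had 10.27, 10.62 and 10.29 in DU145, 10.38, 10.83 and 10.90 in PC-3 and 11.41, 11.28 and 11.26 in 22Rv1, in normoxia with solvent. Every 22Rv1 array lay above every array of the other lines with this probe. The difference was -0.92 ± 0.14 for DU145 against 22Rv1 (log2 difference ± SE, adjusted p = 1.13e-06) and -0.61 ± 0.14 for PC-3 against 22Rv1 (adjusted p = 0.000334). DU145 and PC-3 overlapped (difference -0.31, adjusted p = 0.0581). The second probe, ILMN_2110908, called DU145 lower than 22Rv1 by -0.69 ± 0.20 (adjusted p = 0.00463), while its difference between PC-3 and 22Rv1 was -0.23 (adjusted p = 0.334).

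Over all 12 groups the highest mean of ILMN_1680618 was that of 22Rv1 in hypoxia with solvent, 11.50 ± 0.09 (SD, n = 3), and the lowest that of DU145 in hypoxia with vorinostat, 10.31 ± 0.09. The 4 groups of 22Rv1 stood first, and 3 of the 4 DU145 groups stood last. In that order all 11 pairs of neighbouring groups overlapped in their arrays. ILMN_2110908 gave another order, with PC-3 above 22Rv1 in 3 of the 4 conditions. Its highest mean was that of PC-3 in normoxia with vorinostat, 9.19 ± 0.42, beside 8.95 ± 0.05 in 22Rv1, and its lowest was again that of DU145 in hypoxia with vorinostat, 7.99 ± 0.10.

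Vorinostat was associated with a higher MYC level in DU145 in normoxia but not in hypoxia. In normoxia MYC had 10.62, 10.92 and 10.81 with vorinostat, against 10.27, 10.62 and 10.29 with solvent (ILMN_1680618). In hypoxia it had 10.34, 10.38 and 10.22 with vorinostat, against 10.57, 10.38 and 10.55 with solvent. The vorinostat arrays lay above the solvent arrays in normoxia and below them in hypoxia, but at each oxygen level the nearest arrays of the groups were equal to 2 decimals. The change was 0.39 ± 0.14 in normoxia (1.31-fold, adjusted p = 0.0289) and -0.19 ± 0.14 in hypoxia (adjusted p = 0.336). The difference between these effects was -0.58 ± 0.20 and did not pass the test (adjusted p = 0.246). The second probe gave 0.50 ± 0.20 in normoxia (adjusted p = 0.056), -0.21 in hypoxia (adjusted p = 0.49) and a difference of -0.71 ± 0.29 (adjusted p = 0.377). The call in normoxia ended when solvent array 1 or 3 or vorinostat array 2 or 3 was left out (adjusted p 0.0763 to 0.115), and under median scaling (adjusted p = 0.0782).

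In PC-3, ILMN_1680618 had 10.86, 11.16 and 11.24 with vorinostat in normoxia, against 10.38, 10.83 and 10.90 with solvent, and 10.87, 11.08 and 11.39 with vorinostat in hypoxia, against 10.73, 11.03 and 11.04 with solvent. Averaged over both oxygen levels the change was 0.28 ± 0.10 (adjusted p = 0.0262), with vorinostat and solvent arrays overlapping. Without solvent array 1 or vorinostat array 2 or 3 of normoxia, or without solvent array 1 or vorinostat array 3 of hypoxia, the adjusted p was 0.0573 to 0.116. It was also above the threshold with array weights or with the PC-3 arrays alone (0.105 and 0.127). ILMN_2110908 had 8.84, 9.09 and 9.66 with vorinostat in normoxia, against 8.13, 8.58 and 8.94 with solvent, which overlapped (0.64 ± 0.20, adjusted p = 0.0228). That call ended without solvent array 1 or vorinostat array 3 of normoxia (0.176 and 0.197), and with array weights or the PC-3 arrays alone (0.125 and 0.165). Its change in hypoxia was 0.03 (adjusted p = 0.951) and its average 0.34 ± 0.14 (adjusted p = 0.0755, called at 0.0455 under cyclic loess and at 0.00248 with a replicate block). Without solvent array 3 or vorinostat array 1 of either oxygen level that average was called (0.41 to 0.44).

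In 22Rv1 the average of ILMN_1680618 was -0.14 ± 0.10 (adjusted p = 0.3), and the effect in PC-3 exceeded that in 22Rv1 by 0.42 ± 0.14 (adjusted p = 0.0274). That difference ended without any 1 of 6 arrays, solvent 1 and vorinostat 3 of PC-3 at both oxygen levels, solvent 1 of 22Rv1 in normoxia and vorinostat 1 of 22Rv1 in hypoxia (adjusted p 0.0504 to 0.0653). The second probe, ILMN_2110908, was not among the 3 probes called for this difference.

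On solvent arrays the change of ILMN_1680618 was 0.11 ± 0.14 in DU145, 0.23 ± 0.14 in PC-3 and 0.18 ± 0.14 in 22Rv1, with adjusted p of 0.727, 0.33 and 0.443. ILMN_2110908 gave 0.10, 0.56 and 0.20 in these lines, with adjusted p of 0.85, 0.0693 and 0.592. The PC-3 value of ILMN_2110908 was called with a replicate block, the authors' normalized values or an offset of 50 (adjusted p 0.00177, 0.0476 and 0.0495). That value was also called without solvent array 3 of normoxia or 1 of hypoxia (0.025 and 0.0178). On vorinostat arrays of DU145, ILMN_1680618 was lower in hypoxia by -0.47 ± 0.14 (adjusted p = 0.037). This call ended without vorinostat array 2 or 3 of normoxia or 1 or 3 of hypoxia (adjusted p 0.0864 to 0.171). It also ended under cyclic loess, median scaling, no filter on dim probes and DU145 arrays alone (adjusted p 0.0567 to 0.0813).

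**Figure D2:**
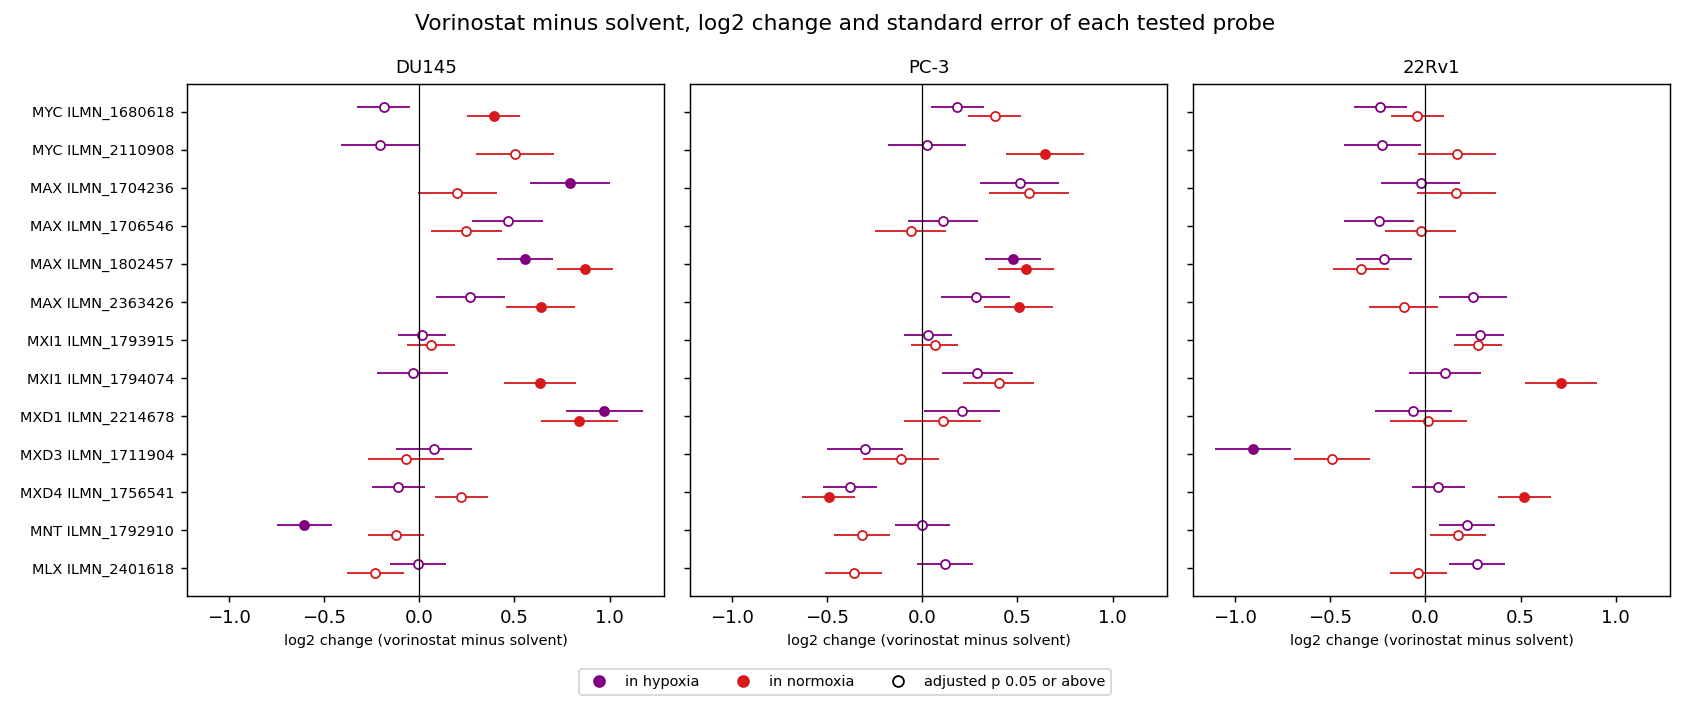
Log2 change between vorinostat and solvent arrays (x axis) for the 13 tested probes (y axis) in each line, in hypoxia and in normoxia, with the standard error. Filled points have an adjusted p under 0.05. The MAX probes lie right of 0 in DU145, MXD1 does so in DU145 alone among filled points, and MXD3 lies left of 0 in 22Rv1.

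Across the network, 6 of the 13 tested probes were called for vorinostat in DU145 (background 46.3%), 6 in PC-3 (background 33%) and 5 in 22Rv1 (background 38%), averaged over both oxygen levels. These shares are near the background. The median change of the 13 probes was 0.15 in DU145, 0.16 in PC-3 and 0.07 in 22Rv1, beside medians of -0.02, -0.01 and -0.01 over all tested probes. At single oxygen levels the counts were 4 in hypoxia (background 34.9%) and 5 in normoxia (background 34.5%) in DU145, 1 in hypoxia (background 22.5%) and 4 in normoxia (background 20.1%) in PC-3, and 1 in hypoxia (background 27%) and 2 in normoxia (background 25.2%) in 22Rv1. In limma, 0 of 13 probes were called for the difference between the effects at the 2 oxygen levels in DU145 (background 0.393%), 0 in PC-3 (background 0.0608%) and 0 in 22Rv1 (background 0.444%). At an unadjusted p under 0.05 the counts were 4, 2 and 2.

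MAX (chr14:65006101-65102695), the shared partner of MYC and its antagonists, rose with vorinostat in DU145 on all 4 of its probes, which the annotation assigns to 4 different transcripts. With ILMN_1802457, DU145 had 7.05, 7.63 and 7.48 with vorinostat in hypoxia, against 6.69, 6.94 and 6.86 with solvent. In normoxia it had 7.12, 7.36 and 7.71 with vorinostat, against 6.69, 6.50 and 6.37 with solvent. The groups did not overlap at either oxygen level. The average change was 0.71 ± 0.10 (1.64-fold, adjusted p = 1.09e-06), and it was called under each of the 9 processing alternatives and without any 1 array. The other MAX probes changed by 0.36 to 0.50 with adjusted p of 0.00384 to 0.0269. The weakest of them, ILMN_1706546, ended without solvent array 2 or vorinostat array 1 of normoxia or solvent array 1 or vorinostat array 1 of hypoxia (adjusted p 0.052 to 0.129), and with no filter on dim probes or DU145 arrays alone (0.0545 and 0.0611).

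In PC-3, 3 of the 4 MAX probes rose with vorinostat. ILMN_1802457 had 8.26, 7.99 and 8.45 with vorinostat in hypoxia, against 7.79, 7.72 and 7.75 with solvent, and 8.36, 8.28 and 8.48 with vorinostat in normoxia, against 7.84, 7.78 and 7.87 with solvent. All 6 vorinostat arrays lay above all 6 solvent arrays. The average change was 0.51 ± 0.10 (1.43-fold, adjusted p = 0.000235). ILMN_1704236 changed by 0.54 ± 0.15 (adjusted p = 0.00517) and ILMN_2363426 by 0.39 ± 0.13 (adjusted p = 0.0165), while ILMN_1706546 changed by 0.02 (adjusted p = 0.924). The call of ILMN_2363426 ended without solvent array 2 or vorinostat array 3 of normoxia or vorinostat array 1 or 3 of hypoxia (adjusted p 0.0513 to 0.0635), and with the PC-3 arrays alone (0.0757).

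In 22Rv1 none of the 4 MAX probes was called higher with vorinostat, and ILMN_1706546 and ILMN_1802457 were above background on 2 and 1 of its 12 arrays. ILMN_2363426, above background on all 22Rv1 arrays, had 5.88, 6.00 and 5.79 with vorinostat in hypoxia, against 5.69, 5.65 and 5.57 with solvent, and 6.26, 6.09 and 6.20 with vorinostat in normoxia, against 6.19, 6.43 and 6.27 with solvent. Its average change was 0.07 ± 0.13 (adjusted p = 0.735). ILMN_1802457 was called lower by -0.28 ± 0.10 (adjusted p = 0.0347), but it was above background on 0 of 6 vorinostat arrays and 1 of 6 solvent arrays, so no fold is given. That call ended without any 1 of 7 arrays (solvent 1 or 2 or vorinostat 1 or 3 of normoxia, solvent 2 or 3 or vorinostat 2 of hypoxia; adjusted p 0.0562 to 0.112), and under 5 alternatives (0.0612 to 0.359). The vorinostat effect on ILMN_1802457 was larger in DU145 than in 22Rv1 by 0.99 ± 0.15 (adjusted p = 3.56e-06) and in PC-3 than in 22Rv1 by 0.79 ± 0.15 (adjusted p = 0.000145). Both differences are set against the near-background signal in 22Rv1, and their sizes rest on it. Between DU145 and PC-3 it differed by 0.20 ± 0.15 (adjusted p = 0.346).

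MAX also separated the lines before treatment. With ILMN_1802457, normoxia solvent arrays had 6.69, 6.50 and 6.37 in DU145, 7.84, 7.78 and 7.87 in PC-3 and 5.43, 5.28 and 5.11 in 22Rv1. The 3 lines did not overlap. DU145 differed from PC-3 by -1.31 ± 0.15 (adjusted p = 5.61e-09) and PC-3 from 22Rv1 by 2.56 ± 0.15 (5.89-fold, adjusted p = 8.74e-16), where 1 of the 3 arrays of 22Rv1 was above background. ILMN_2363426 placed DU145 below PC-3 by -1.18 ± 0.18 (adjusted p = 1.56e-06) and PC-3 above 22Rv1 by 1.51 ± 0.18 (adjusted p = 1.35e-08). For DU145 against 22Rv1 it gave 0.33 ± 0.18 (adjusted p = 0.121), where ILMN_1704236 and ILMN_1802457 were higher by 1.14 and 1.25 (adjusted p 2.22e-05 and 1.14e-08). ILMN_1706546, above background on 0 of 3 of those 22Rv1 arrays, was called at least 1.62-fold higher.

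**Figure D3:**
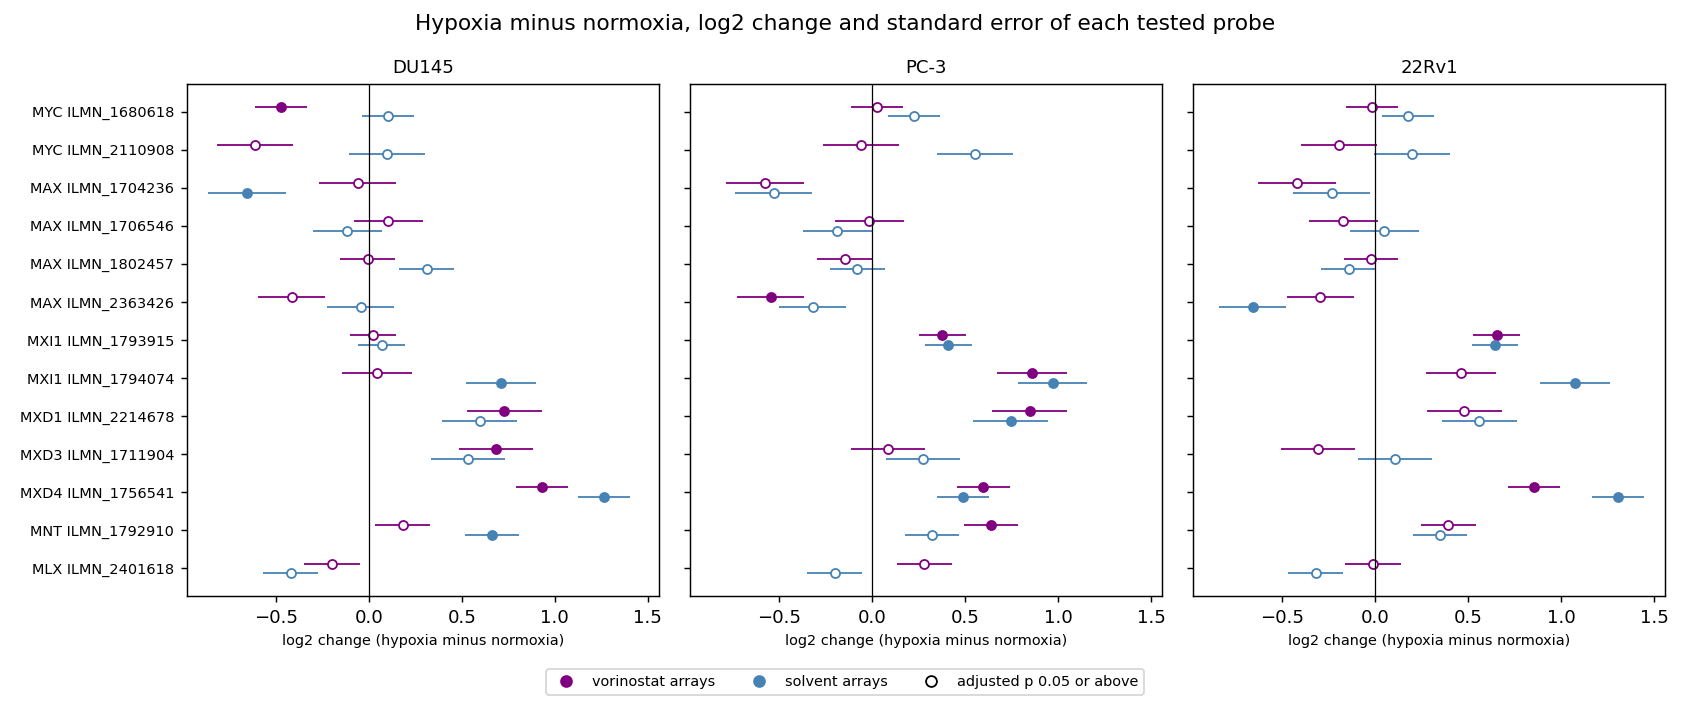
Log2 change between hypoxia and normoxia arrays (x axis) for the 13 tested probes (y axis) in each line, on vorinostat arrays and on solvent arrays, with the standard error. Filled points have an adjusted p under 0.05. MXD4 is filled and right of 0 in each line and on both kinds of array, and MXI1 ILMN_1794074 is so on solvent arrays of each line.

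In hypoxia with solvent, the antagonists MXD4 and MXI1 were called higher in each line, MNT in DU145 and MXD1 in PC-3, while MXD3 was called in none. On solvent arrays 4 of the 13 tested probes were called in DU145 (background 11.7%), 4 in PC-3 (background 13.2%) and 4 in 22Rv1 (background 16.5%). Of these 12 calls, 10 were higher probes of MXI1, MXD1, MXD4 or MNT, and 2 were lower probes of MAX. Among the 10 is the dim MXI1 probe ILMN_1793915 in PC-3 and in 22Rv1. It passed the filter for testing only through 22Rv1 arrays in hypoxia, so its calls add no separate support for a rise. On solvent arrays it was above background on 0 of 3 in PC-3 at either oxygen level. In 22Rv1 it was so on 1 of 3 in hypoxia and 0 of 3 in normoxia. Its PC-3 call ended under 5 of 8 alternatives (adjusted p 0.0761 to 0.166). On vorinostat arrays 4 of the 13 probes were called in DU145 (background 6.65%), 6 in PC-3 (background 11.1%) and 2 in 22Rv1 (background 17.5%). ILMN_1793915 is again among those called in PC-3 and in 22Rv1. On vorinostat arrays of PC-3 it was above background on 0 of 3 at either oxygen level. That PC-3 call ended under 7 of 8 alternatives (adjusted p 0.0704 to 0.19). In each line the normoxia solvent arrays enter both the vorinostat and the hypoxia comparison.

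MXD4 (chr4:2247432-2262109), an antagonist that pairs with MAX, rose in hypoxia in all 3 lines. In DU145 it had 10.12, 10.01 and 10.49 in hypoxia, against 9.00, 8.81 and 9.02 in normoxia, with solvent. In PC-3 it had 9.61, 9.12 and 9.39 in hypoxia, against 8.92, 8.76 and 8.97 in normoxia. In 22Rv1 it had 9.71, 9.77 and 9.70 in hypoxia, against 8.30, 8.41 and 8.56 in normoxia. In each line the lowest hypoxia array lay above the highest normoxia array. The changes were 1.26 ± 0.14 in DU145 (2.40-fold, adjusted p = 2.09e-07), 0.49 ± 0.14 in PC-3 (1.40-fold, adjusted p = 0.018) and 1.31 ± 0.14 in 22Rv1 (2.47-fold, adjusted p = 3.46e-08). The PC-3 call ended without solvent array 2 of normoxia or 1 or 3 of hypoxia (adjusted p 0.0566 to 0.126), and with the PC-3 arrays alone (0.134).

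The hypoxia effect on MXD4 was smaller in PC-3 than in the other lines. It was larger in DU145 than in PC-3 by 0.78 ± 0.20 (adjusted p = 0.0341, 1 of 13 probes, background 1.93%) and lower in PC-3 than in 22Rv1 by -0.82 ± 0.20 (adjusted p = 0.0136, 1 of 13 probes, background 3.8%). The first of these ended without 6 of 12 arrays, solvent 2 of DU145 in normoxia and 3 in hypoxia, solvent 1 or 3 of PC-3 in normoxia and 2 or 3 in hypoxia (adjusted p 0.0605 to 0.116), and with no filter on dim probes or the arrays of both lines alone (0.0506 and 0.136). The second ended without solvent array 2 of PC-3 in hypoxia (0.0554). On vorinostat arrays MXD4 rose in hypoxia by 0.93 ± 0.14 in DU145 (adjusted p = 5.06e-05), 0.60 ± 0.14 in PC-3 (adjusted p = 0.00504) and 0.86 ± 0.14 in 22Rv1 (adjusted p = 4.44e-05). The PC-3 value ended without vorinostat array 3 of normoxia (0.0682) and with the PC-3 arrays alone (0.0856). Between DU145 and 22Rv1, 0 of 13 probes were called for the hypoxia effect in limma (background 4.42%), against 3 at an unadjusted p under 0.05.

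In normoxia vorinostat moved MXD4 in opposite directions in 2 of the lines. In PC-3 in normoxia it had 8.70, 8.43 and 8.05 with vorinostat, against 8.92, 8.76 and 8.97 with solvent, and in 22Rv1 it had 8.98, 8.85 and 8.99 with vorinostat, against 8.30, 8.41 and 8.56 with solvent. In both lines the 2 sets of arrays did not overlap. In hypoxia they overlapped in both lines, with means of 8.995 with vorinostat against 9.374 with solvent in PC-3, and 9.797 against 9.728 in 22Rv1. The normoxia call in PC-3 ended without solvent array 3 or vorinostat array 3 (adjusted p 0.0507 to 0.129), and with the PC-3 arrays alone (0.0948). The normoxia call in 22Rv1 was kept under each of the 10 alternatives and without any 1 array. Averaged over oxygen levels MXD4 fell in PC-3 (-0.43 ± 0.10, adjusted p = 0.000877) and rose in 22Rv1 (0.29 ± 0.10, adjusted p = 0.0185), with 0.06 ± 0.10 in DU145 (adjusted p = 0.692). The call in 22Rv1 ended without solvent array 1 of normoxia (0.0533) and under median scaling (0.0966). The effect was lower in PC-3 than in 22Rv1 by -0.73 ± 0.14 (adjusted p = 0.000223) and higher in DU145 than in PC-3 by 0.49 ± 0.14 (adjusted p = 0.00948).

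MXI1 (chr10:110207605-110287365), an antagonist known as a target of hypoxia-inducible factors, rose in hypoxia in all 3 lines with its brightest probe, ILMN_1794074. In DU145 it had 5.81, 5.52 and 5.58 in hypoxia, against 4.87, 4.82 and 5.10 in normoxia, with solvent. In PC-3 it had 6.33, 5.95 and 6.50 in hypoxia, against 5.46, 4.84 and 5.56 in normoxia. In 22Rv1 it had 6.47, 6.22 and 6.31 in hypoxia, against 4.87, 5.36 and 5.56 in normoxia. No hypoxia array overlapped the normoxia arrays of its line. The probe was above background on 0 of 3 normoxia solvent arrays of DU145, so the rise there was at least 1.13-fold (adjusted p = 0.0109). Such a bound sets the mean of the brighter group against the detection floor of the dimmer arrays. The rises in PC-3 (0.97 ± 0.19, 1.96-fold, adjusted p = 0.000601) and 22Rv1 (1.07 ± 0.19, 2.10-fold, adjusted p = 0.000129) had 2 of 3 normoxia arrays above background each. The DU145 call ended without solvent array 2 of normoxia or 1 of hypoxia (0.0613 at most) and under median scaling (0.112).

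With vorinostat already present, the hypoxia change of MXI1 was 0.86 ± 0.19 in PC-3 (adjusted p = 0.00284), 0.46 ± 0.19 in 22Rv1 (adjusted p = 0.0885) and 0.05 ± 0.19 in DU145 (adjusted p = 0.942). In normoxia vorinostat raised MXI1 itself in 22Rv1, where it had 6.04, 6.13 and 5.75 with vorinostat, against 4.87, 5.36 and 5.56 with solvent (0.71 ± 0.19, adjusted p = 0.00476). In DU145 in normoxia it had 5.80, 5.27 and 5.61 with vorinostat, against 4.87, 4.82 and 5.10 with solvent, at least 1.07-fold higher (adjusted p = 0.0089). The vorinostat groups lay above the solvent groups in both lines. The call in 22Rv1 ended without solvent array 1 (0.064) and that in DU145 without vorinostat array 1 (0.0642). In hypoxia the vorinostat change of MXI1 was -0.03 in DU145, 0.29 in PC-3 and 0.10 in 22Rv1, none past the threshold (adjusted p 0.923, 0.302 and 0.759).

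Averaged over oxygen levels MXI1 rose with vorinostat in PC-3 (0.35 ± 0.13, adjusted p = 0.0447) and 22Rv1 (0.41 ± 0.13, adjusted p = 0.0147), with 0.30 ± 0.13 in DU145 (adjusted p = 0.0656). The PC-3 call ended without any 1 of 6 arrays (solvent 2 or vorinostat 1 of normoxia, solvent 1 or 2 or vorinostat 1 or 3 of hypoxia; adjusted p 0.0533 to 0.181), and under 4 alternatives (0.0633 to 0.116). The 22Rv1 call ended without solvent array 1 of normoxia (0.0699). The oxygen levels could not be separated in DU145 (difference of effects -0.67 ± 0.27, adjusted p = 0.363) or 22Rv1 (-0.61 ± 0.27, adjusted p = 0.711).

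The other 3 MXI1 probes were dim. ILMN_1793915, annotated to the same transcript, was above background on 4 of 36 arrays, all of them 22Rv1 in hypoxia. It passed the filter for testing through these arrays alone, so its rise in hypoxia in 22Rv1 is no separate support for MXI1. In 22Rv1 it had 5.53, 5.45 and 5.31 in hypoxia with vorinostat, against 4.74, 4.70 and 4.89 in normoxia with vorinostat, at least 1.17-fold higher. The 2 MXI1 probes of other transcripts were above background on 1 array each and were not tested. No fold is given for ILMN_1793915 in PC-3, where neither oxygen level was above background.

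MXD1 (chr2:69915109-69942945), an antagonist known to rise as cells differentiate, rose with vorinostat in DU145. It had 7.12, 6.50 and 7.35 with vorinostat in hypoxia, against 5.93, 5.89 and 6.24 with solvent. In normoxia it had 6.25, 6.02 and 6.53 with vorinostat, against 5.25, 5.41 and 5.61 with solvent. All 6 vorinostat arrays lay above the solvent arrays of their oxygen level. The average change was 0.91 ± 0.14 (1.87-fold, adjusted p = 3.85e-06) and it was called under each of the 10 alternatives and without any 1 array. The probe was above background on 1 of 3 solvent arrays of DU145 in normoxia. Sizes set against that group rest partly on a signal near background. In PC-3 it was 0.16 ± 0.14 (adjusted p = 0.45) and in 22Rv1 -0.02 ± 0.14 (adjusted p = 0.925). The effect in DU145 exceeded that in PC-3 by 0.75 ± 0.20 (adjusted p = 0.00612) and that in 22Rv1 by 0.93 ± 0.20 (adjusted p = 0.000548).

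Hypoxia raised MXD1 past the threshold on solvent arrays of PC-3, where it had 6.54, 6.35 and 6.32 in hypoxia, against 5.91, 5.74 and 5.32 in normoxia (0.75 ± 0.20, adjusted p = 0.0118). The change was 0.60 ± 0.20 in DU145 (adjusted p = 0.0509) and 0.56 ± 0.20 in 22Rv1 (adjusted p = 0.0546), each without overlap between the oxygen levels. The PC-3 call ended without solvent array 3 of normoxia or 1 of hypoxia (0.0564 and 0.094), and under median scaling or with the PC-3 arrays alone (0.0564 to 0.0735). On vorinostat arrays MXD1 was higher in hypoxia in PC-3 by 0.85 ± 0.20 (adjusted p = 0.00575) and in DU145 by 0.73 ± 0.20 (adjusted p = 0.0247). The DU145 value ended without vorinostat array 1 or 2 of normoxia or 1 or 3 of hypoxia (0.0642 to 0.178), the PC-3 value without vorinostat array 3 of normoxia (0.0677), and both with the arrays of their line alone (0.0813 in DU145 and 0.0597 in PC-3). Before treatment MXD1 was lower in DU145 than in 22Rv1 by -0.92 ± 0.20 (adjusted p = 0.000227) and in PC-3 than in 22Rv1 by -0.69 ± 0.20 (adjusted p = 0.00387).

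MXD3 (chr5:177305499-177312752), the member of its family known to be expressed in dividing cells, was highest in 22Rv1 and lowest in DU145. In normoxia with solvent it had 5.46, 4.70 and 4.78 in DU145, none above background, 5.97, 5.69 and 5.76 in PC-3 and 7.39, 7.64 and 7.29 in 22Rv1. The 3 lines did not overlap. It was at least 3.95-fold lower in DU145 than in 22Rv1 (adjusted p = 3.72e-12), at least 1.27-fold lower in DU145 than in PC-3 (adjusted p = 0.000697) and lower in PC-3 than in 22Rv1 by -1.63 ± 0.20 (adjusted p = 1.99e-08). In 22Rv1 MXD3 fell with vorinostat. It had 7.01, 6.50 and 6.43 with vorinostat in hypoxia, against 7.52, 7.63 and 7.50 with solvent, and 7.01, 6.97 and 6.87 with vorinostat in normoxia, against 7.39, 7.64 and 7.29 with solvent. The groups were apart at both oxygen levels. The average change was -0.70 ± 0.14 (0.616-fold, adjusted p = 0.000163), and it was called under each of the 10 alternatives and without any 1 array. In PC-3 it was -0.21 ± 0.14 (adjusted p = 0.291).

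In DU145 MXD3 was above background on 0 of 6 normoxia arrays and on 4 of 6 hypoxia arrays. On vorinostat arrays it had 6.05, 5.18 and 5.54 in hypoxia, against 4.74, 4.80 and 5.20 in normoxia, at least 1.17-fold higher (adjusted p = 0.0341). The 2 sets of arrays overlapped. That call ended without vorinostat array 1 or 2 of normoxia or 1 or 3 of hypoxia (0.0793 to 0.269) and under 5 alternatives (0.0577 to 0.151). The vorinostat effect in DU145 exceeded that in 22Rv1 by 0.70 ± 0.20 (adjusted p = 0.00655), with MXD3 at most dimly measured in DU145.

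MNT (chr17:2384073-2401060), the broadly expressed antagonist of MYC, rose in hypoxia in DU145. It had 7.65, 7.34 and 7.34 in hypoxia, against 7.14, 6.67 and 6.53 in normoxia, with solvent, which did not overlap (0.66 ± 0.15, 1.58-fold, adjusted p = 0.00236). With vorinostat in hypoxia the DU145 arrays had 6.98, 6.74 and 6.81, all below the solvent arrays of hypoxia (-0.60 ± 0.15, adjusted p = 0.00155). In normoxia the vorinostat change was -0.12 ± 0.15 (adjusted p = 0.587), and the average over both was -0.36 ± 0.10 (adjusted p = 0.00458). Each of these 3 called values was called under each of the 10 alternatives and without any 1 array. In 22Rv1 the average vorinostat change was 0.19 ± 0.10 (adjusted p = 0.147), and the vorinostat effect in DU145 lay below that in 22Rv1 by -0.56 ± 0.15 (adjusted p = 0.00361). In PC-3 MNT rose in hypoxia on vorinostat arrays, which had 7.48, 7.78 and 7.47, against 7.12, 6.71 and 6.98 in normoxia (0.64 ± 0.15, adjusted p = 0.00417). On solvent arrays of PC-3 and 22Rv1 the hypoxia change was 0.32 and 0.35 (adjusted p 0.152 and 0.105).

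On solvent arrays the calls lower in hypoxia were 1 MAX probe in 22Rv1 and another in DU145. ILMN_2363426 had 5.69, 5.65 and 5.57 in hypoxia, against 6.19, 6.43 and 6.27 in normoxia, in 22Rv1 with solvent (-0.66 ± 0.18, adjusted p = 0.0105). ILMN_1704236 had 6.04, 5.72 and 6.07 in hypoxia, against 6.50, 6.85 and 6.44 in normoxia, in DU145 with solvent (-0.65 ± 0.21, adjusted p = 0.0387). Both pairs of groups were apart. The MAX probes did not move together in DU145, where ILMN_1802457 changed by 0.31 ± 0.15 (adjusted p = 0.183). The DU145 call ended without 5 of the 6 arrays, all but solvent array 1 of normoxia (0.0522 to 0.184), and under 6 alternatives (0.0504 to 0.0871). The 22Rv1 call ended without solvent array 2 of normoxia (0.0576), and under median scaling or with the authors' normalized values (0.0904 and 0.105). On vorinostat arrays of PC-3, ILMN_2363426 was lower in hypoxia by -0.54 ± 0.18 (adjusted p = 0.0485), and this ended without vorinostat array 1 or 3 of normoxia or 2 of hypoxia (0.0769 to 0.373) and under 4 alternatives (0.0576 to 0.184).

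MLX (chr17:42567100-42573203) was measured by ILMN_2401618 on all 36 arrays, while its other probe was above background on none and was not tested. It set PC-3 apart, with 8.18, 8.21 and 7.99 in DU145, 7.00, 6.87 and 6.67 in PC-3 and 8.38, 8.46 and 8.31 in 22Rv1, in normoxia with solvent. Every PC-3 array lay below every array of the other lines. DU145 exceeded PC-3 by 1.28 ± 0.15 (2.43-fold, adjusted p = 1.01e-08), PC-3 lay below 22Rv1 by -1.54 ± 0.15 (adjusted p = 1.57e-10), and DU145 against 22Rv1 gave -0.25 ± 0.15 (adjusted p = 0.143). Neither vorinostat nor hypoxia moved MLX past the threshold in any line. Its largest change was the hypoxia change in DU145 with solvent, -0.42 ± 0.15 (adjusted p = 0.0628).

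**Figure D4:**
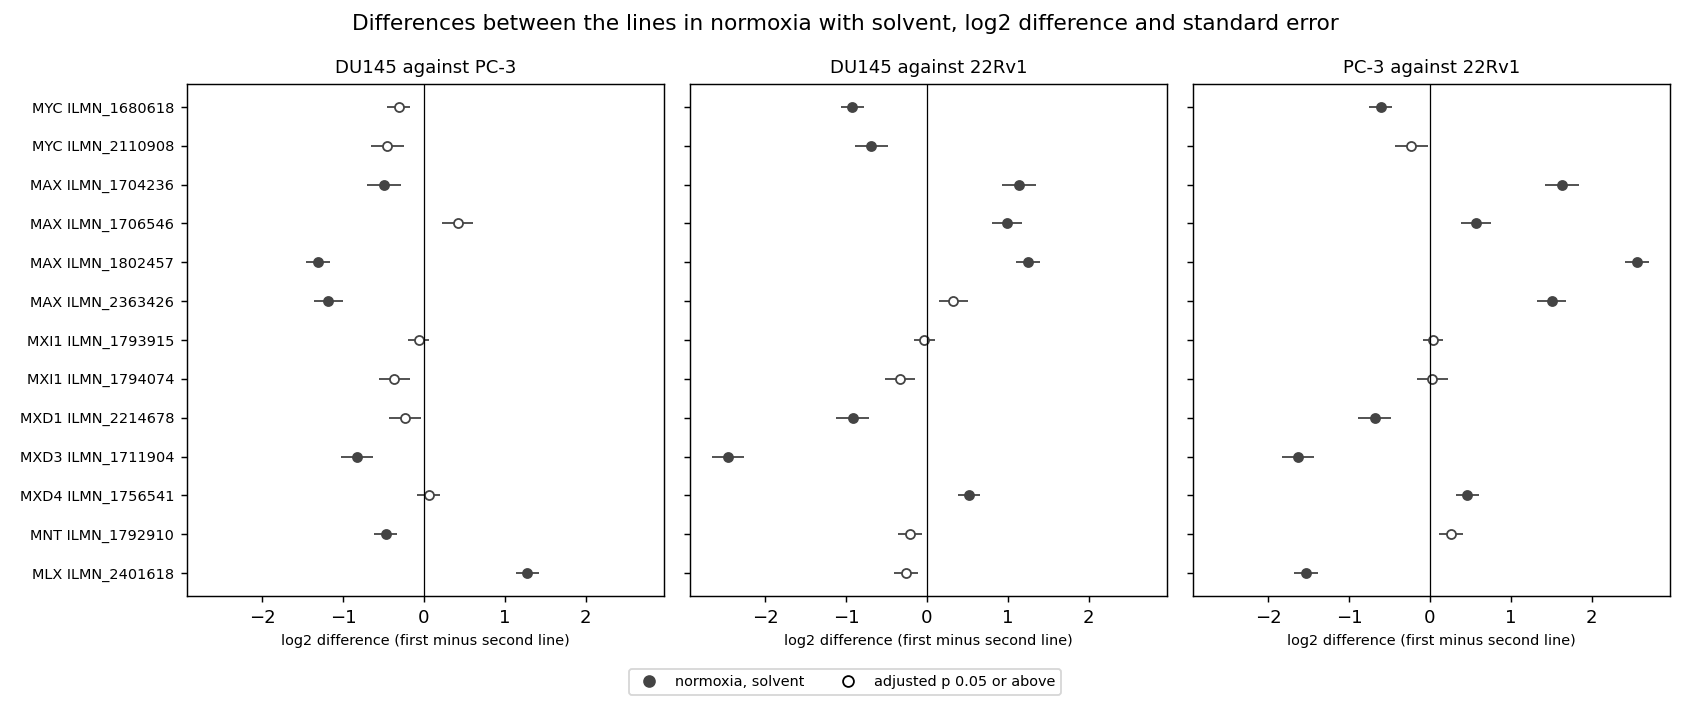
Log2 difference between 2 lines in normoxia with solvent (x axis) for the 13 tested probes (y axis), with the standard error. Filled points have an adjusted p under 0.05. MXD3 lies left of 0 in each panel, and MLX lies right of 0 for DU145 against PC-3 and left of 0 for PC-3 against 22Rv1.

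Between the lines in normoxia with solvent, 6 of the 13 probes were called for DU145 against PC-3 (background 56.7%), 8 for DU145 against 22Rv1 (background 58.5%) and 9 for PC-3 against 22Rv1 (background 62.1%). These shares are near the background of each comparison. MXD4 was higher in DU145 than in 22Rv1 by 0.52 ± 0.14 (adjusted p = 0.00194, 0.062 under median scaling) and in PC-3 than in 22Rv1 by 0.46 ± 0.14 (adjusted p = 0.00503). MNT was lower in DU145 than in PC-3 by -0.47 ± 0.15 (adjusted p = 0.00663, 0.0646 without solvent array 3 of DU145). For the vorinostat effect, 2 probes differed between DU145 and PC-3 (background 25.3%), 5 between DU145 and 22Rv1 (background 33%) and 3 between PC-3 and 22Rv1 (background 22.4%). The comparisons between lines share the arrays of the common line.

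As a description over the 12 group means, each centred on the mean of its line, MXD4 and MNT varied together (r = 0.807), as did MXI1 and MXD1 (r = 0.774) and MXI1 and MXD4 (r = 0.725). MAX, read from its brightest probe ILMN_2363426 alone, varied against MNT (r = -0.764) and MXD4 (r = -0.687). The other MAX probes did not enter these values and need not share them. MYC was less tied to any of them (largest r = 0.413, with MXI1). Among 12359 other genes, those with the pattern most like MYC were ZNFX1 (r = 0.902), H4C11 (0.88), ANXA6 (0.814) and EMP1 (0.81). Those most like MXI1 were WDR26 (0.957), TPD52 (0.956), PPP2R5B (0.956) and WDFY1 (0.951). All these values share the same 36 arrays and their normalization. Of the genes most like MYC, H4C11 had group means of 4.557 to 4.89 in DU145 and 22Rv1, and ANXA6 of 4.773 to 4.941 in 22Rv1. EMP1 had 4.601 in DU145 and 4.798 in 22Rv1 in normoxia with solvent. These means lie below the detection floor of 5.15 to 5.58, so the likeness rests partly on signals near background.

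Genes known to be induced by MYC mostly moved down where they moved. Of 44 listed genes for ribosome assembly, nucleotide and polyamine synthesis and growth, 39 were tested, 1 probe each. With vorinostat 0 rose and 28 fell in DU145 (24.1% of all 12360 genes fell), 2 rose and 19 fell in PC-3 (19% fell) and 0 rose and 20 fell in 22Rv1 (21.6% fell). The list's median change was -0.33, -0.21 and -0.20 in these lines, beside 0.01, 0 and 0 over all genes. In hypoxia 1 rose and 15 fell in DU145 (6.26% of all genes fell), 1 rose and 14 fell in PC-3 (8.54% fell) and 2 rose and 12 fell in 22Rv1 (9.41% fell), with medians of -0.31, -0.24 and -0.23. These falls stood beside a MYC level that changed by the amounts given above, and whether the 2 are linked was not tested.

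With vorinostat the ribosome assembly factor DKC1 fell by 0.97 (SE 0.10, adjusted p = 7.89e-10) and the transcriptional coactivator PPRC1 by 1.11 (adjusted p = 1.02e-08) in DU145. SRM, which makes spermidine, changed by -0.56 ± 0.09 in PC-3 (adjusted p = 6.2e-06) and -0.87 ± 0.09 in 22Rv1 (adjusted p = 1.35e-09). The cell cycle phosphatase CDC25A changed by -0.65 ± 0.10 in PC-3 (adjusted p = 2.79e-06) and by -1.49 ± 0.10 in 22Rv1 (adjusted p = 1.05e-13). In hypoxia the ribosome assembly factor RRP12 changed by -0.90 ± 0.14 in DU145 (adjusted p = 4.7e-05) and -0.87 ± 0.14 in PC-3 (adjusted p = 6.25e-05). MRTO4, of the same process, changed by -0.83 ± 0.13 in 22Rv1 (adjusted p = 4.12e-05). LDHA, which makes lactate and is itself a known target of hypoxia-inducible factors, was among the genes that rose, by 1.03 ± 0.07 in 22Rv1 (adjusted p = 5.61e-12).

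**Figure D5:**
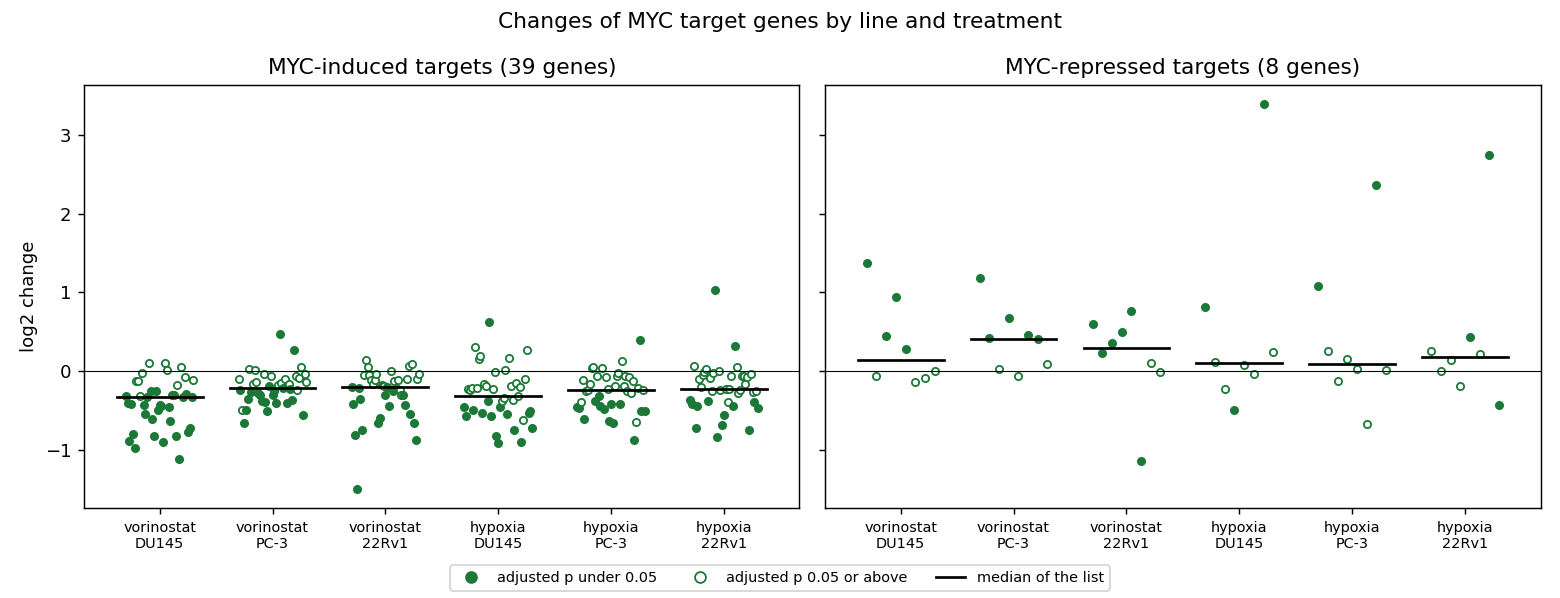
Log2 change (y axis) of 39 MYC-induced and 8 MYC-repressed target genes, 1 probe each, for vorinostat against solvent and hypoxia against normoxia in each line (x axis). Filled points have an adjusted p under 0.05 and bars are list medians. The medians of the MYC-induced genes lie between -0.33 and -0.20.

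Of 9 genes known to be repressed by MYC, 8 were tested. With vorinostat 4 rose in DU145, 5 in PC-3 and 5 in 22Rv1, where HES1, a Notch target, fell by 1.14 (adjusted p = 1.47e-06). The share of all genes that rose was 27.3%, 19% and 22.1% in these lines. CDKN1A, the p21 inhibitor of cyclin-dependent kinases, rose with vorinostat by 1.37 ± 0.16 in DU145 (adjusted p = 2.71e-08), 1.18 ± 0.16 in PC-3 (adjusted p = 8.81e-07) and 0.60 ± 0.16 in 22Rv1 (adjusted p = 0.00336). In hypoxia 2 rose in each line, beside 7.08%, 6.71% and 9.25% of all genes in DU145, PC-3 and 22Rv1, among them NDRG1, which also stands on the list of hypoxia-induced genes. The stress-response gene GADD45A fell in hypoxia in DU145 by 0.48 (adjusted p = 0.0324) and NDRG2 in 22Rv1 by 0.42 (adjusted p = 0.049).

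Of 9 tested genes of the corepressor that MXD proteins and MNT recruit, SAP30 was the one that rose in hypoxia in all 3 lines, by 0.84 ± 0.17 in DU145 (adjusted p = 0.00103), 1.15 ± 0.17 in PC-3 (adjusted p = 1.63e-05) and 0.71 ± 0.17 in 22Rv1 (adjusted p = 0.00353). With vorinostat the deacetylase HDAC1 rose in DU145 by 1.09 ± 0.06 (adjusted p = 3.04e-15), where SIN3A fell by 0.32 (adjusted p = 0.00024). In all, 2 of the 9 rose and 1 fell with vorinostat in DU145 (27.3% of all genes rose and 24.1% fell), 1 fell in PC-3 (19% fell) and 2 rose and 2 fell in 22Rv1 (22.1% rose and 21.6% fell). In hypoxia 1 rose and 1 fell in DU145 (7.08% of all genes rose and 6.26% fell), 1 rose in PC-3 (6.71% rose) and 2 rose in 22Rv1 (9.25% rose). Of 18 tested cofactors and regulators of MYC stability, 2 rose and 7 fell with vorinostat in DU145, 3 rose and 4 fell in PC-3 and 2 rose and 8 fell in 22Rv1, beside the same shares of all genes (in PC-3, 19% rose and 19% fell). WDR5, a chromatin protein that binds MYC, fell in each line, by -0.82 ± 0.09 in DU145 (adjusted p = 3.85e-09), -0.86 ± 0.09 in PC-3 (adjusted p = 4.7e-09) and -0.74 ± 0.09 in 22Rv1 (adjusted p = 3.37e-08). AURKA, a mitotic kinase, fell in 22Rv1 by 1.08 (adjusted p = 1.28e-12). In hypoxia 1 of the 18 fell in DU145 (6.26% of all genes fell), 1 rose and 1 fell in PC-3 (6.71% rose and 8.54% fell) and 3 rose and 2 fell in 22Rv1 (9.25% rose and 9.41% fell).

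Of 8 further genes listed as an extended network, 6 were tested, MYCL, MGA, MLXIPL, MYCBP, MYCBP2 and TCFL5. Not all of them are MYC paralogs or partners of MAX or MLX. With vorinostat 4 rose in DU145 (27.3% of all genes rose), and 1 rose and 1 fell in 22Rv1 (22.1% rose and 21.6% fell). MLXIPL, the glucose-responsive partner of MLX, rose by 1.09 ± 0.14 in DU145 (adjusted p = 1.2e-07) and 0.62 ± 0.14 in 22Rv1 (adjusted p = 0.000581), and was above background on 0 of 6 arrays of either treatment in PC-3. In PC-3 0 of the 6 were called in limma (19% of all genes rose and 19% fell), with 1 at an unadjusted p under 0.05. In hypoxia 2 rose in 22Rv1 (9.25% of all genes rose), and 0 were called in DU145 and in PC-3 (7.08% and 6.71% rose), with 1 and 2 at an unadjusted p under 0.05.

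TXNIP and ARRDC4, which are known targets of MLX with its glucose-sensing partners, rose with vorinostat in DU145. TXNIP had 9.69, 9.75 and 10.29 with vorinostat in hypoxia, against 7.03, 7.37 and 7.70 with solvent, and 7.88, 7.75 and 8.71 with vorinostat in normoxia, against 5.71, 5.88 and 5.62 with solvent. The vorinostat arrays lay above the solvent arrays at both oxygen levels. The change was 2.46 ± 0.15 (adjusted p = 3.23e-14), with -0.02 in PC-3 (adjusted p = 0.947) and 0.15 in 22Rv1 (adjusted p = 0.486). ARRDC4 was above background on 6 of 6 vorinostat arrays and 0 of 6 solvent arrays of DU145 (adjusted p = 1.68e-11). In hypoxia TXNIP rose by 1.63 ± 0.21 in DU145 (adjusted p = 2.88e-06) and 1.42 ± 0.21 in 22Rv1 (adjusted p = 1.21e-05), with 0.47 ± 0.21 in PC-3 (adjusted p = 0.149). Of the 5 tested genes of this list, 2 rose and 2 fell with vorinostat in DU145 (27.3% of all genes rose and 24.1% fell), and 1 rose and 1 fell in 22Rv1 (22.1% rose and 21.6% fell). In PC-3 0 of the 5 were called in limma, with 0 at an unadjusted p under 0.05 (19% of all genes rose and 19% fell). In hypoxia 3 rose in DU145, 1 in PC-3 and 4 in 22Rv1, beside 7.08%, 6.71% and 9.25% of all genes. Among the 3 in DU145 is ARRDC4, above background on 0 of 3 arrays at either oxygen level.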

How the data were processed

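Per the file headers, the non-normalized table that was deposited pairs a linear intensity, the mean signal over a probe's beads, with a detection p-value on every array. BeadStudio 3.1.3.0 is named in the submitters' processing notes. The deposited normalized table, used as an alternative, holds intensity values with the same ranks within each array (lowest rank correlation 1) and medians of 110.8 to 110.9. How it was made is not stated in the labels. No 2 arrays held identical values, and 0 columns of sample values were left unused.

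From the deposited intensities and detection p-values, limma 3.58.1 in R 4.3.3 made log2 values by its neqc function, using an offset of 16 and quantile normalization over all arrays. Files were read with data.table, version 1.17.8. Testing required a detection p below 0.01 on 3 or more of the 36 arrays, which 21376 of 47323 probes (45.2%) met. All 36 arrays entered a single limma fit of 12 group means (29.5 degrees of freedom after moderation), with Benjamini-Hochberg adjustment over all tested probes and a threshold of 0.05. The arrays' number limits the precision. Median signals were 92.5 to 127 and the 95th percentile was 9.49 to 12.1 times the median. Symbols were updated by Entrez ID through a RefSeq table (GRCh38.p14), and each listed gene was read from its brightest probe, by mean over all arrays (12360 genes). Where a group had no array above background, the fold is a bound against the detection floor of its arrays, the lowest signal above background (5.15 to 5.58 on the log2 scale). Scripts were tested on simulated data. Promoter motifs were searched with Python 3.11.15 and figures drawn with matplotlib 3.10.9.

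The members and the gene lists were chosen with earlier results of these data known. All 16 probes are accounted for. From each list the 3 genes with the largest change among those called in a line and comparison could be named, TXNIP and ARRDC4 always, and the 4 genes most like MYC and MXI1. Alternatives were cyclic loess, median scaling, the authors' normalized values, an offset of 50, no filter and a stricter one on dim probes (detection p below 0.05 on at least 18 arrays), a replicate block, array weights, the arrays of the lines compared alone, 1 probe per gene and each array left out. The slide of an array is not named in the files, so no slide block was fitted.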

Additional observations from a re-analysis of the deposited data

Results flagged for a closer look

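A set of 12 effects differed between lines by the test of the difference itself, in the limma model with adjusted p under 0.05. For vorinostat, DU145 minus PC-3, these were MXD1 (0.747, adjusted p = 0.00612) and MXD4 (0.491, adjusted p = 0.00948). For vorinostat, DU145 minus 22Rv1, they were MAX ILMN_1802457 (0.99, adjusted p = 3.56e-06), MAX ILMN_1706546 (0.489, adjusted p = 0.0433), MXD1 (0.93, adjusted p = 0.000548), MXD3 (0.703, adjusted p = 0.00655) and MNT (-0.555, adjusted p = 0.00361). The MAX ILMN_1706546 difference ended without any 1 of 13 of 24 arrays (in DU145 solvent 2 and vorinostat 1 or 2 of normoxia and solvent 1 or vorinostat 1 of hypoxia, in 22Rv1 solvent 1 or 3 and vorinostat 1 or 2 of normoxia and solvent 1 or 3 and vorinostat 2 or 3 of hypoxia; adjusted p 0.055 to 0.105) and under no filter on dim probes or the arrays of both lines alone (0.0546 and 0.0857). For vorinostat, PC-3 minus 22Rv1, they were MYC ILMN_1680618 (0.421, adjusted p = 0.0274), MAX ILMN_1802457 (0.788, adjusted p = 0.000145) and MXD4 (-0.729, adjusted p = 0.000223). MYC ILMN_2110908 was not called for that difference. For hypoxia, MXD4 differed between DU145 and PC-3 (0.776, adjusted p = 0.0341) and between PC-3 and 22Rv1 (-0.817, adjusted p = 0.0136). MAX ILMN_1802457 was above background on 1 of 12 arrays of 22Rv1, ILMN_1706546 on 2 of 12, and MXD3 on 0 of 6 normoxia and 4 of 6 hypoxia arrays of DU145, so these differences rest on an arm near background. MXD1 was above background on 1 of 3 normoxia solvent arrays of DU145, so its differences rest partly on such an arm. Beyond the fits with each array left out and with array weights, groups of 3 arrays were not examined for single arrays that stand apart. The causes of these differences were not tested.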

How the results depend on the processing

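Of 999 repeats of 104 results under other processing, 922 kept direction and side of the threshold, 71 lost the call, 5 gained one and 1 turned: MYC ILMN_2110908 for vorinostat in 22Rv1 was 0.001 under cyclic loess. With each array left out, 822 of 948 were kept, 117 lost the call, 6 gained one and 3 turned: MYC ILMN_2110908 ranged from -0.014 to 0.235 for hypoxia in DU145 and from -0.07 to 0.011 for vorinostat in 22Rv1. Counts of called probes moved as follows. With 1 probe per gene there were 3 for vorinostat in DU145, 3 in 22Rv1, 3 for its difference between DU145 and 22Rv1 and 4 for DU145 against 22Rv1, where fewer probes are tested. Under median scaling there were 2 for hypoxia in DU145 and 3 for vorinostat in 22Rv1. With only the arrays of the lines compared there were 3 for vorinostat and 1 for hypoxia in PC-3, 0 for the hypoxia difference between DU145 and PC-3 (also 0 with no filter) and 1 for that between DU145 and 22Rv1. With array weights there were 7 for hypoxia in 22Rv1 and 1 for the hypoxia difference between DU145 and 22Rv1. For vorinostat in PC-3 against 22Rv1 there were 5 under median scaling, the authors' normalized values, an offset of 50, a replicate block and the arrays of both lines alone. Apart from the changes with a stated construction, the cause was not tested.

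With each array left out, counts ranged from 5 to 7 (vorinostat in DU145), 3 to 7 (PC-3) and 2 to 5 (22Rv1), from 2 to 5 (hypoxia in DU145), 2 to 4 (PC-3) and 3 to 4 (22Rv1), from 4 to 8 (DU145 against PC-3), 8 to 9 (DU145 against 22Rv1) and 8 to 10 (PC-3 against 22Rv1), and stayed at 0 for oxygen dependence in each line. For differences of effects they ranged from 2 to 2, 4 to 5 and 2 to 5 (vorinostat) and from 0 to 1 for each pair of lines (hypoxia).

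A replicate block gave 1 called probe for the oxygen dependence in DU145 (MYC ILMN_2110908, lower), 1 for the hypoxia difference between DU145 and 22Rv1, and 5 for vorinostat in PC-3 against 22Rv1. Same-numbered arrays correlated, after their group means were removed, at -0.049 to 0.25 in DU145, -0.002 to 0.431 in PC-3 and -0.01 to 0.092 in 22Rv1. The medians were 0.139, 0.2345 and 0.04, beside -0.0675, -0.12 and -0.0145 for arrays of other numbers. As a hint from the data, 11, 12 and 11 of 12 arrays were closest on average to their own number. The main fit did not take the numbers as pairs, so its p-values leave out what arrays of 1 number may share. No scaling moved the median of all probes by over 0.1, but cyclic loess put the higher share of all calls for hypoxia in PC-3 at 55.3% against 45.1%, and median scaling put that for hypoxia on vorinostat arrays at 29.6% against 49.2% in PC-3 and 18.5% against 43.8% in 22Rv1. It put that for vorinostat in hypoxia at 37.4% against 50.3% in PC-3 and 37.4% against 49.2% in 22Rv1, and that for the vorinostat difference between DU145 and PC-3 at 64.5% against 53.4%. For oxygen dependence it put it at 45.1% against 29.8% in DU145 and 8.26% against 23.2% in 22Rv1, while in PC-3 the authors' normalized values and an offset of 50 gave 26.7% and 26.9% against 15.4%. Signal over background limits MXI1, MXD1, MXD3 and MAX where they are dim.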
